A study of Xenopus tropicalis with 18 samples.

Results

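Control foregut was compared with control head and pharynx of the frog Xenopus tropicalis at stage 33 (NF, Nieuwkoop and Faber), in 3 libraries of each tissue, 6 of the 18 libraries of the series. The libraries were chosen by the region and treatment that their labels give, and each was made from a pool of 8 dissected explants of mesoderm with endoderm. All embryos were wild type and of the Nigerian strain (NXR_1018). Head with pharynx embryos had received 0.1% DMSO. Foregut embryos had received 0.1% DMSO and, at the 2-cell stage, 1 ng of a mismatch morpholino (500 pg per cell), an antisense oligomer with changed bases used as an injection control. Hindgut, the remaining control tissue, had 0.1% DMSO and no morpholino in its label. Region and morpholino therefore cannot be told apart in the comparison of foregut with head and pharynx. Foregut explants treated with cyclopamine (40 µM), an inhibitor of Hedgehog signalling, or BMS493 (100 nM), a blocker of retinoic acid receptors, both given from stage 15, or with 1 ng of an Rfx6 morpholino and DMSO, are used below only to describe where genes of the control comparison were detected. The labels of cyclopamine and BMS493 foregut name no DMSO and no morpholino. Against control foregut, the drug, the lack of a mismatch morpholino and any lack of DMSO therefore cannot be told apart in them.

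The foregut of a vertebrate embryo is the part of the gut tube that gives rise to the oesophagus, stomach, liver, pancreas and the start of the intestine, with the lung and trachea budding from its ventral side. The pharynx lies in front of it and forms pouches that later yield organs such as the thymus, surrounded by arches filled with mesoderm and neural crest. Signals along the axis, retinoic acid and Hedgehog among them, help to set the position of these territories. The explants therefore join tissues with different endoderm and different mesoderm. The files name genes by identifiers only, and 0 of 28863 identifiers matched a reference table of gene names. The dissected tissues could thus not be checked against their marker genes, nor the presence of other cell types, and no gene symbol or sequence is given. The genes are instead described by level, fold and state, and 4 identifiers, 2 higher and 2 lower in foregut, are followed library by library.

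Libraries held 26006163 to 45586493 counts in foregut and 27103051 to 60735837 in head with pharynx. CPM here are counts scaled to library totals adjusted by composition scaling (TMM). Across tested genes, the Spearman correlation of log2 CPM lay between 0.989 and 0.997 for the 6 pairs of libraries of the same tissue. For the 9 pairs across tissues it lay between 0.886 and 0.904. The median over genes of the SD of log2 CPM between replicates was 0.162 in foregut and 0.11 in head with pharynx. Foregut replicate 2 stood apart, with a median squared deviation of 11.8 and 11.9 times the Poisson expectation from replicates 1 and 3, against 5.48 between those. Replicate 3 of BMS493 foregut and of Rfx6 morpholino foregut also lay apart from the other libraries of its group (9.02 to 10.1 times and 7.39 to 11.1 times, against 2.63 and 2.91 between replicates 1 and 2). Cyclopamine replicate 3 did so with smaller values (5.72 and 5.98 times, against 2.55). Hindgut replicate 2 lay 15 and 7.41 times from replicates 1 and 3, against 4.93 between those. Their values are given where they touch a result.

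Foregut and head with pharynx differed in 10016 of 18551 tested genes, or 54.0% (edgeR's quasi-likelihood test with Benjamini-Hochberg adjusted p under 0.05, n = 3 per tissue). Genes higher in foregut made up 27.6% of those tested, and genes lower in foregut 26.4%. The changes were of unequal size in the 2 directions. The median log2 fold change was 0.92 among the 5115 higher genes and -0.68 among the 4901 lower genes. Genes at least 2-fold higher in foregut numbered 2421 (13.1% of those tested), and genes at least 2-fold lower numbered 1801 (9.71%). These are explants of many cell types, so fewer cells of a type and less RNA per cell cannot be told apart. With total counts in place of composition scaling, the median of all tested genes moved to -0.18 on the log2 scale and the balance turned, to 3742 higher and 7495 lower genes and to 2142 at least 2-fold higher and 2199 at least 2-fold lower. The directions given below are relative to that shift.

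**Figure D1:**
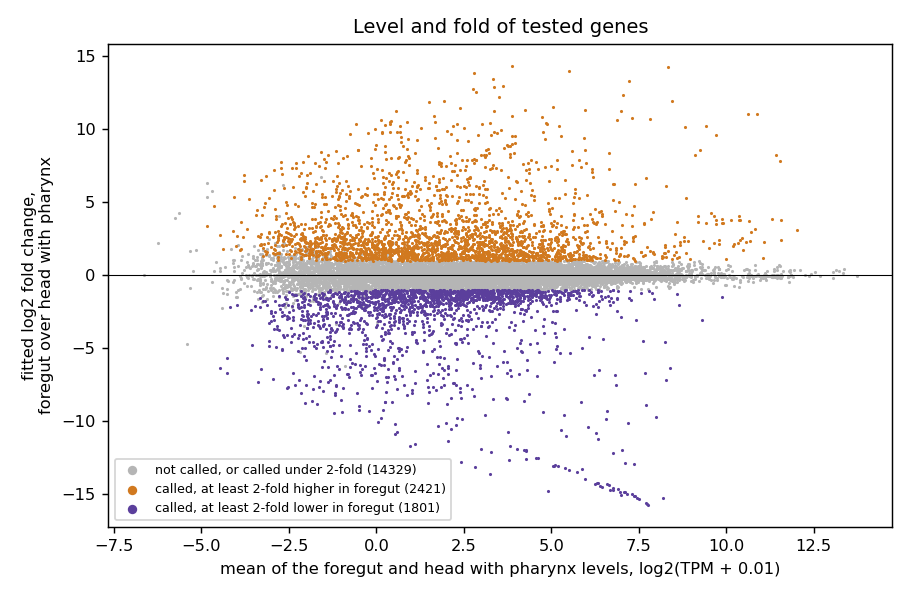
Each point is a tested gene, placed by the mean of its foregut and head with pharynx levels (log2 of TPM plus 0.01, horizontal) and its fitted log2 fold change of foregut over head with pharynx (vertical). The 2421 genes at least 2-fold higher in foregut extend to the highest levels, whereas none of the 1801 at least 2-fold lower has a mean of 1000 TPM or more. Where a tissue had no counts the fitted value depends on the prior count.

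Small changes were more often lower in foregut and larger ones more often higher. Among called genes that differed less than 2-fold, 2694 were higher and 3100 lower in foregut. Between 2- and 4-fold there were 1050 higher and 992 lower genes. Without head with pharynx replicate 2 that pair was 992 and 1001, so the balance there is not firm. Between 4- and 8-fold the numbers parted to 577 higher and 299 lower, and between 8- and 16-fold to 269 and 152. Between 16- and 32-fold they were 140 and 82. At 32-fold or more, 385 genes were higher and 276 lower by the fitted change. Of these, 67 and 99 had no count in the lower tissue, where a fitted fold is no measurement. With such genes set at the bound that 3 counts over the lower group allow, 361 higher and 248 lower genes stood at 32-fold or more. At 1024-fold or more the fitted change placed 51 genes higher and 71 lower in foregut, and the bound 33 and 41, so that the extreme of the range belonged more often to head with pharynx. Total counts turned the balance between 2- and 4-fold, to 918 higher and 1287 lower, but still gave more higher than lower genes at 4-fold or more (1224 and 912) and at 32-fold or more (372 and 290).

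Levels differed by direction as well. TPM, a relative transcript abundance, scales counts for gene length and depth, so that genes can be compared with each other. Among 2932 tested genes with a mean of the 2 tissues under 1 TPM, 22.2% were at least 2-fold higher in foregut and 16.2% at least 2-fold lower. At 1 to 10 TPM these shares were 15.7% and 13.6% of 6477 genes, and at 10 to 100 TPM 7.99% and 4.95% of 7801. At 100 to 1000 TPM they were 9.01% and 4.76% of 1176 genes. At 1000 TPM or more, 26 of 165 genes (15.8%) were at least 2-fold higher in foregut and 0 at least 2-fold lower, although 14 were lower by less than that. With total counts the last class held 24 higher genes and 1 lower, and the class of 1 to 10 TPM turned, to 907 higher and 1067 lower. The median SE of the log2 fold change fell from 0.48 in the lowest class to 0.083 in the highest, so the shares of the low classes rest on larger changes. The median absolute log2 fold change among called genes was 2.20 under 1 TPM and 0.64 at 1000 TPM or more. The expression filter could also pass a gene of low mean through 1 tissue alone, hindgut included. The shares of the lowest class therefore depend in part on which genes the filter let in.

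**Figure D2:**
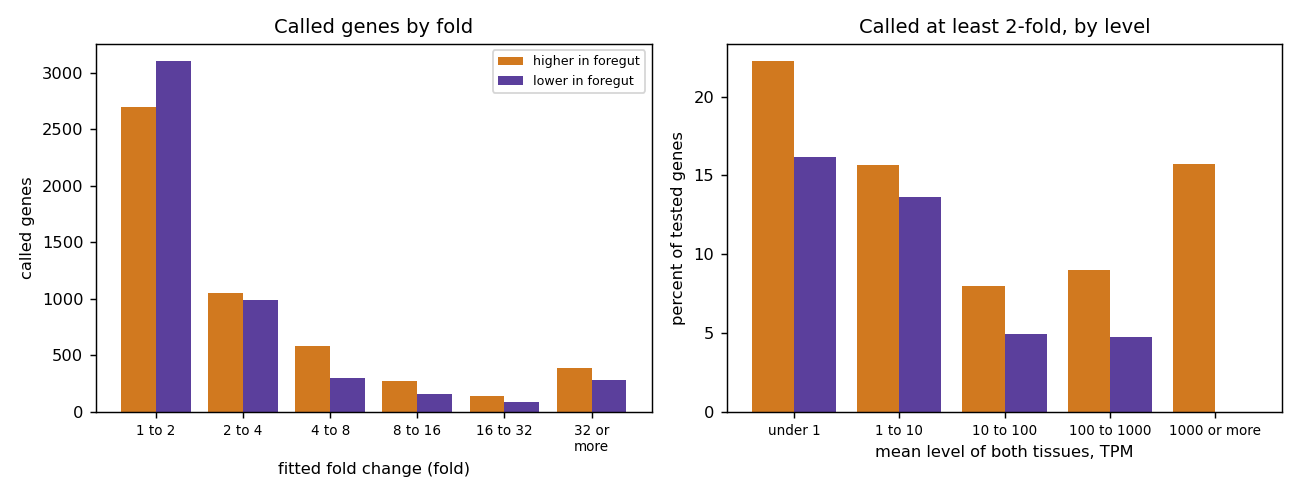
The left panel gives the number of called genes by fitted fold change and the right panel the percent of tested genes called at least 2-fold, by the mean level of both tissues in TPM; orange bars are genes higher in foregut and purple bars genes lower. With composition scaling, as drawn, purple exceeds orange only among changes under 2-fold (3100 against 2694), whereas total counts turn the bars of 2 to 4 fold and of 1 to 10 TPM, and the class of 1000 TPM or more has an orange bar (15.8%) and no purple one.

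Of the 100 most abundant identifiers in each tissue, 76 were common to both lists, which is 76% of either list. In the foregut list 23 genes were at least 2-fold higher in foregut, and in the head with pharynx list 0 were at least 2-fold lower in foregut. The 23 genes lay between 2077 and 7230 TPM in foregut by group mean, with a median of 2885, and between 2.07 and 1409 TPM in head with pharynx, with a median of 453. In hindgut their median was 3188 TPM. They held 8.40%, 7.13% and 8.26% of all TPM in foregut replicates 1, 2 and 3, against 0.966%, 1.10% and 1.11% in head with pharynx replicates 1, 2 and 3. The share of TPM in the 100 most abundant identifiers of each library was nonetheless close, at 34.9 ± 1.38% in foregut and 35.5 ± 0.392% in head with pharynx (SD, n = 3, exact two-sided permutation p = 0.8, adjusted p = 0.9 over 6 such summaries).

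The transcript mass behind the 2 directions was uneven. Genes at least 2-fold higher in foregut held 18.4%, 16.8% and 18.1% of TPM in foregut replicates 1, 2 and 3. In head with pharynx they held 3.02%, 3.29% and 3.31%. Hindgut, whose label names no morpholino, had 19.4%, 18.3% and 19.5%. Genes at least 2-fold lower in foregut held 4.36%, 4.08% and 4.55% of TPM in head with pharynx, 0.72%, 0.803% and 0.723% in foregut and 0.539%, 0.602% and 0.558% in hindgut. The genes were selected on the foregut and head with pharynx values, so these shares describe the lists and are not tested. The hindgut libraries lay near foregut for both lists. They took part in the fit's expression filter, scaling and spread, so they are not independent of the lists. With only the 6 libraries compared, 18015 genes were tested, with 2293 at least 2-fold higher and 1773 at least 2-fold lower. Of the summed level of the higher genes, 29 genes made up 50%, and for the lower genes 69 were needed. Levels of 1000 TPM or more in the higher tissue were reached by 45 of the genes higher in foregut and by 2 of those lower.

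The typical gene of either list was far below these levels. Genes at least 2-fold higher had a median of 5.82 TPM in foregut, 0.917 TPM in head with pharynx and 4.43 TPM in hindgut. Genes at least 2-fold lower had a median of 4.88 TPM in head with pharynx, 0.747 TPM in foregut and 0.51 TPM in hindgut. Replicate 2 was often the lowest library of the tissue in which a list was high, and not of the other tissue. Foregut replicate 2 was the lowest foregut library for 49.8% of the genes higher in foregut, against 38.5% of all tested genes. Head with pharynx replicate 2 was the lowest library of its tissue for 56.4% of the genes lower in foregut, against 37% of all tested genes. On the low side of each list it was the lowest less often than among all tested genes, at 32.2% for head with pharynx in the genes higher in foregut and 30.5% for foregut in the genes lower there. Without foregut replicate 2 there were 2516 genes at least 2-fold higher and 1863 at least 2-fold lower.

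The identifier with the largest difference in TPM among called genes higher in foregut was XBXT10g012114. Its level was 8490, 5705 and 7495 TPM in foregut replicates 1, 2 and 3 and 1033, 1163 and 815 TPM in head with pharynx. Every foregut library lay above every head with pharynx library, and replicate 2 was the lowest of the foregut. The fitted log2 fold change was 3.08 ± 0.19 (SE), or 8.47-fold (edgeR's quasi-likelihood test, adjusted p = 6.67e-07). It ranked 8th by mean TPM in foregut and 149th in head with pharynx. Hindgut had 5697, 4714 and 4948 TPM, so that it was abundant in both gut regions behind the pharynx.

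XBXT10g016337 had the largest difference in TPM among called genes lower in foregut. It measured 2724, 2997 and 2606 TPM in foregut replicates 1, 2 and 3 and 4624, 4625 and 3837 TPM in head with pharynx, with no overlap between the tissues. The fitted log2 fold change was -0.44 ± 0.093 (SE, adjusted p = 0.00162 with edgeR's quasi-likelihood test), 1.35-fold lower in foregut. With total counts it was -0.63. The largest absolute loss toward the foregut among called genes was therefore a small relative change. XBXT10g016337 ranked 13th in head with pharynx and 45th in foregut. In hindgut it was lower still, at 1855, 2012 and 1606 TPM. XBXT10g000103, which was not called, fell further in TPM, with means of 9557 in head with pharynx and 7387 in foregut (adjusted p = 0.0568 with edgeR's quasi-likelihood test).

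**Figure D3:**
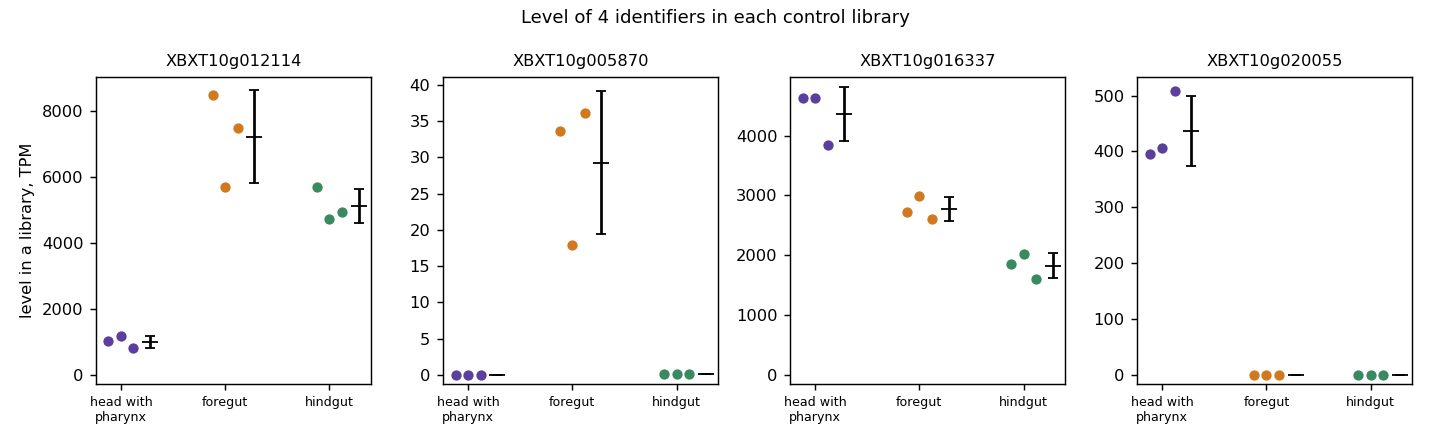
Each panel is 1 identifier, with points for the 3 libraries of head with pharynx, foregut and hindgut (replicates 1 to 3 from left to right) and a bar for the mean ± SD, all in TPM. XBXT10g012114 is high in foregut and hindgut, XBXT10g005870 in foregut alone among these tissues (17.9 to 36.2 TPM), XBXT10g016337 in all 3 tissues, and XBXT10g020055 in head with pharynx alone (395 to 508 TPM).

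A stricter view of the boundary asked which genes were on in one tissue and off in the other. An identifier was taken as on in a tissue with 1 TPM or more in all 3 libraries, as off with less than 0.1 TPM in all 3, and as between otherwise. By that rule 13849 identifiers were on in both tissues and 7300 were off in both. Another 120 were on in foregut and off in head with pharynx (0.416% of 28863), and 143 were on in head with pharynx and off in foregut (0.495%). Of the 10016 called genes 7403 (73.9%) were on in both tissues, a share near the 74.5% of all tested genes. Of the genes at least 2-fold higher in foregut 45.1% were on in both tissues and 4.92% were on in foregut and off in head with pharynx. Of those at least 2-fold lower 40.5% were on in both and 7.88% were on in head with pharynx and off in foregut. A further 722 identifiers were on in foregut and between in head with pharynx, and 846 the other way round. The number of identifiers at 1 TPM or more per library was 15351 ± 86.1 in foregut and 15373 ± 33.8 in head with pharynx (SD, n = 3, exact two-sided permutation p = 0.8, adjusted p = 0.9). Identifiers at 100 TPM or more numbered 1283 ± 37.6 in foregut and 1396 ± 13.9 in head with pharynx (exact p = 0.1, the smallest that 3 against 3 libraries allow, adjusted p = 0.3). Log2 TPM ratios of foregut over head with pharynx ran 0.21 below the fitted changes in the median. Counts at a fixed TPM limit include that shift, and its part in them was not tested.

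**Figure D4:**
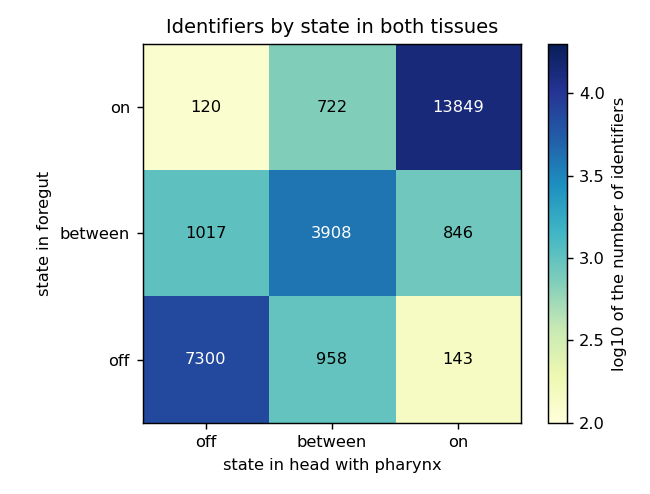
Each cell gives the number of identifiers by their state in foregut (vertical) and in head with pharynx (horizontal), where on is 1 TPM or more in all 3 libraries, off is less than 0.1 TPM in all 3, and between is the rest; colour is log10 of that number. The corners hold 13849 identifiers on in both, 7300 off in both, and 120 and 143 that were on in one and off in the other.

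The on/off genes of head with pharynx were the more abundant. Those on in foregut had a median of 5.40 TPM there (quartiles 2.62 and 14.4, highest 640), and 4 of 120 had a mean of 100 TPM or more. Those on in head with pharynx had a median of 7.89 TPM there (quartiles 2.72 and 68.6, highest 585), and 30 of 143 had a mean of 100 TPM or more. Summed, the foregut genes made 3184, 1699 and 2786 TPM in foregut replicates 1, 2 and 3, with replicate 2 the lowest. The head with pharynx genes made 8711, 8599 and 10757 TPM in head with pharynx replicates 1, 2 and 3. The direction of abundance was thus opposite to that among all genes changed at least 2-fold. It holds for the off limit of 0.1 TPM, which leaves out abundant genes with a trace above it in the lower tissue. On the off side, 33 of the foregut genes had no count in any head with pharynx library and 65 of the head with pharynx genes had none in any foregut library. Over the 3 libraries of the off side the median was 2 counts and 1 count, against 817 and 1438 counts on the on side. Summed over the off side, 72 of the 120 and 99 of the 143 genes had up to 3 counts. The highest sums there were 47 and 64 counts, so off is a low level and not always an absence of counts. These values follow from the rule and are not tested. The 30 abundant head with pharynx genes lay between 105 and 585 TPM there, and none exceeded 0.0233 TPM by group mean in foregut or 0.03 TPM in hindgut.

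The limits of on and off were narrow. The lowest single library on the on side measured 1.01 TPM for the foregut genes and 1.09 TPM for the head with pharynx genes, and the highest on the off side 0.09 TPM in both. Just outside, 81 identifiers were on in foregut and under 0.2 TPM but not off in head with pharynx, and 48 the other way round. Taking off as 0 deposited counts, whatever the TPM, gave 50 identifiers for foregut, of which 33 were among the 120, and 67 for head with pharynx, of which 65 were among the 143. The deposited counts are whole numbers while TPM can be above 0 beside a count of 0, and the other 17 and 2 identifiers had at most 1 and 4 counts over the libraries of the on side. With the TPM limits, leaving out single libraries gave 123 to 153 and 145 to 161. Both states require every library of a tissue, so leaving a library out can only keep or raise these numbers.

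The on/off genes differed in what the hindgut held. Of the 120 genes on in foregut and off in head with pharynx, 65 were also on in hindgut, 39 were between and 16 were off. Of the 143 genes on in head with pharynx and off in foregut, 0 were on in hindgut, 17 were between and 126 were off. Across all identifiers 49.6% were on and 31% off in hindgut, so the 65 of the foregut list (54.2%) lay near that share. The shares off in hindgut were 13.3% of the 120 and 88.1% of the 143. The foregut genes that were on in hindgut had medians of 9.82 TPM in foregut and 6.07 TPM in hindgut, and 16 of the 65 had the higher mean in hindgut. The 16 that were off in hindgut had a median of 3.81 TPM in foregut and summed to 171, 91.6 and 170 TPM in foregut replicates 1, 2 and 3.

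The same genes were read in the foregut libraries of the other treatments. Genes on in foregut and off in head with pharynx summed to 1737 to 1780 TPM in cyclopamine foregut, 582 to 991 TPM in BMS493 foregut and 1416 to 1957 TPM in Rfx6 morpholino foregut, and 107, 67 and 100 of the 120 were on. Across all identifiers 51.7%, 52.3% and 51.2% were on in cyclopamine, BMS493 and Rfx6 morpholino foregut, so the 67 in BMS493 foregut (55.8%) lay near that share. Genes on in head with pharynx summed to 28.5 to 30.7 TPM in cyclopamine foregut, where 4 of 143 were on. In BMS493 foregut they summed to 1585, 1559 and 7624 TPM in replicates 1, 2 and 3, and 92 were on. In Rfx6 morpholino foregut they summed to 53.7, 53 and 1707 TPM, and 7 were on in all 3 libraries, while replicate 3 alone had 89 at 1 TPM or more. Every treated library thus lay above the 2.05 to 2.23 TPM of control foregut for these genes, but the genes were chosen as off in those control libraries, so their level there is fixed by the rule. Hindgut, which the rule did not use, stood at 3.44 to 3.82 TPM. Of the 143 genes, 64 were off in cyclopamine foregut, 0 in BMS493 foregut and 0 in Rfx6 morpholino foregut. The shares of all identifiers that were off there were 29.2%, 28.7% and 28.8%. Off requires all 3 libraries, so 1 library that stands apart can set such a number. Of the 143 genes, 41, 46 and 1 had 0 counts in Rfx6 morpholino replicates 1, 2 and 3. In cyclopamine replicates 1, 2 and 3 these were 41, 39 and 47, and in BMS493 replicates 0, 1 and 0.

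**Figure D5:**
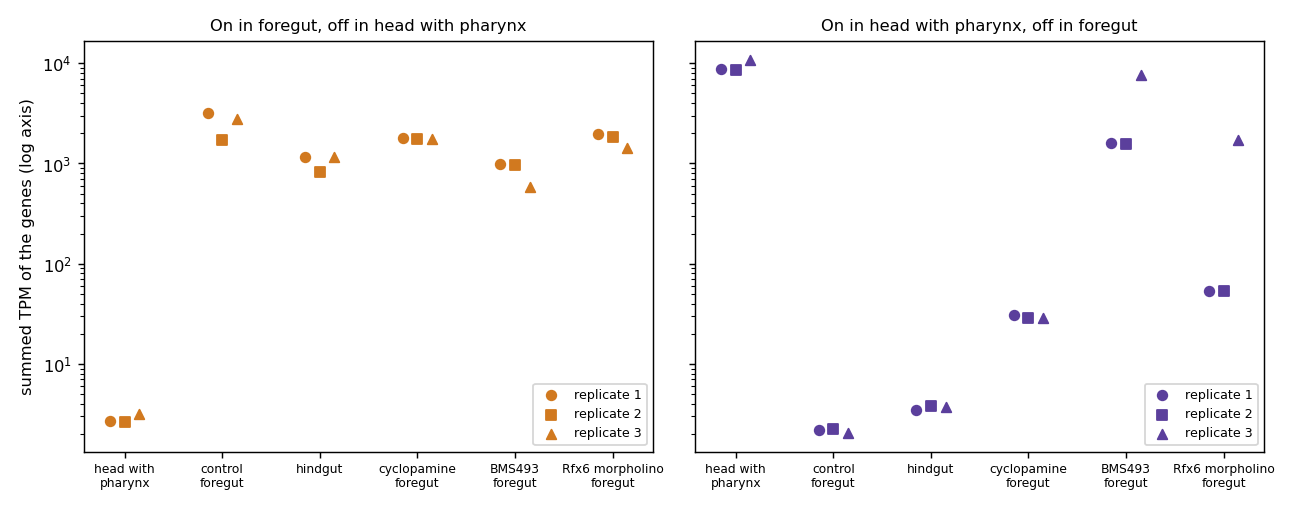
Points give the summed TPM (log axis) of the 120 genes on in foregut and off in head with pharynx (left) and of the 143 genes on in head with pharynx and off in foregut (right) in each of the 18 libraries, with a marker for each replicate number. The left genes stay between 582 and 3184 TPM in every foregut and hindgut library, whereas the right genes range, among foregut and hindgut libraries, from 2.05 TPM in control foregut to 7624 TPM in replicate 3 of BMS493 foregut.

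Among called genes at 10 TPM or more in every library of the higher tissue, the largest fitted fold changes belonged to on/off genes. The largest in each direction had 0 counts in the lower tissue, where the fitted fold depends on the prior count. That these were on/off genes therefore follows largely from the rule. XBXT10g005870 had 33.6, 17.9 and 36.2 TPM in foregut replicates 1, 2 and 3, from 2853, 1114 and 1769 counts, and 0 counts in each head with pharynx library. It was at least 2816-fold higher in foregut when 3 counts over the head with pharynx group are taken as the floor (adjusted p = 5.81e-06 with edgeR's quasi-likelihood test). Hindgut had 0.17, 0.11 and 0.1 TPM, from 31, 11 and 5 counts, above 0 in every library but far below foregut. Treated foregut libraries ranged from 9 TPM in Rfx6 morpholino replicate 3 to 33.5 TPM in cyclopamine replicate 1. By group mean XBXT10g005870 had 31.1 TPM in cyclopamine, 16.4 TPM in BMS493 and 13.6 TPM in Rfx6 morpholino foregut. Control foregut had a mean of 29.25 TPM, and these differences were not tested.

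XBXT10g020055 had 395, 406 and 508 TPM in head with pharynx replicates 1, 2 and 3, from 8711, 7492 and 5141 counts, and 0 counts in each control foregut and each hindgut library. It was at least 5063-fold lower in foregut with the floor of 3 counts over the foregut group (adjusted p = 2.67e-08 with edgeR's quasi-likelihood test). It was at 0 TPM in the 3 cyclopamine libraries and reached 70.2, 69.2 and 375 TPM in BMS493 replicates 1, 2 and 3. In Rfx6 morpholino foregut it was at 0, 0.07 and 76.6 TPM in replicates 1, 2 and 3, so that replicate 3 stood apart as it did for the whole on/off list.

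Genes on in head with pharynx and off in foregut had a larger share of short genes than all tested genes. A relative effective length was read from the ratio of counts to TPM and set to 1 at the median of tested genes. The states are limits on TPM, which is scaled by length, so this length is not independent of how the genes were chosen. It could be had for 142 of the 143 genes, which had a median of 0.698 (quartiles 0.245 and 1.15), and 40.8% of them lay under 0.5, against 17.4% of all tested genes with a value. Among tested genes that were not called, 21.3% of those with a value lay under 0.5. The genes on in foregut and off in head with pharynx had a median of 0.883 (119 of 120 with a value), with 21.8% under 0.5. Genes at least 2-fold higher in foregut had a median of 0.91 and those at least 2-fold lower 1.07. At a given TPM a shorter gene yields fewer counts, and the length differences are given as a description without a test.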

How the data were processed

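Whole mesoderm and endoderm explants were sequenced with a stranded messenger RNA kit, per the labels' protocols. For each gene, estimated counts (whole numbers in 100% of values) and TPM were deposited by the authors for the same 18 libraries. Per the submitters' processing notes, the tools included RSEM 1.3.0 and Bowtie2. The genome build and its annotation were not given in the sources used. How reads were shared between near-identical genes was not examined. Columns were assigned by the sample titles. The entry without a gene name held 0 counts and was left out. None of the 28863 identifiers matched the RefSeq table of 28858 genes (UCB_Xtro_10.0), so gene lists and marker lists planned by symbol could not be used.

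Foregut and head with pharynx were contrasted in a fit of all 9 control libraries with edgeR 4.0.16 in R 4.3.3 (TMM scaling, robust quasi-likelihood test, expression filter at a minimum count of 10, 18551 genes tested, common biological coefficient of variation 0.119). The step was tested on simulated data. Each SE was derived from the test, as the absolute log2 fold change over the square root of the quasi-likelihood F statistic. Levels are TPM, whose log2 ratios between the tissues ran 0.21 below the fitted changes in the median (a difference of -0.21 over 14307 genes). Alternatives were other scalings, DESeq2 1.42.0, no filter, only 6 libraries, a replicate block, stricter thresholds, other on/off limits and leaving out single libraries. Totals of 26006163 to 60735837 counts set the precision, and a gene without counts allows up to 3 counts over its group; intervals of this kind cover counting error only. Nothing says whether pools came from separate clutches, so p-values measure the spread between these libraries. Without symbols, 2 called identifiers a direction were named, by the largest difference in mean TPM and by the largest fitted fold change. The fold rule took genes at 10 TPM or more in every library of the higher tissue. The comparison, lists and rules were chosen with earlier results of these data known.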

Additional observations from a re-analysis of the deposited data

Results flagged for a closer look

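Signal was found in libraries that the comparison of control tissues does not use. Of the 143 genes on in head with pharynx and off in control foregut, 92 (64.3%) were on in BMS493 foregut, 7 in Rfx6 morpholino foregut and 4 in cyclopamine foregut. Across all identifiers 52.3%, 51.2% and 51.7% were on in BMS493, Rfx6 morpholino and cyclopamine foregut. Control foregut has 0 of the 143 on by the rule that chose the genes, and hindgut, which the rule did not use, has 0 on as well. The difference between treatments was not tested. Per library, 94, 98 and 139 of the genes reached 1 TPM in BMS493 replicates 1, 2 and 3, and 9, 8 and 89 did so in Rfx6 morpholino replicates 1, 2 and 3. Replicates 1 and 2 of the treated groups lay closer to each other than other replicate pairs, with a median squared deviation of 2.63 (BMS493), 2.91 (Rfx6 morpholino) and 2.55 (cyclopamine) times the Poisson expectation against 4.93 to 15 in the control groups. They differed by more than counting noise and were kept as separate samples.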

How the results depend on the processing

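Counts of called genes stayed within 1.5 times the reported ones under DESeq2 size factors, DESeq2, no expression filter, only the 6 libraries compared and an adjusted p under 0.01. Total counts gave 7495 genes lower in foregut, and a test against a 2-fold change (glmTreat) gave 1191 lower and 1781 higher. Leaving out single libraries gave 4496 to 5161 higher, 4212 to 5077 lower, 2325 to 2516 at least 2-fold higher and 1721 to 1863 at least 2-fold lower genes, 123 to 153 and 145 to 161 on/off identifiers, and shares of 17.5 to 18.3% and 4.22 to 4.45% of TPM. The on/off numbers could only stay or rise, since both states require every library of a tissue. No gene called in 1 direction was called in the other under any of these settings. Taking off as 0 deposited counts gave 50 and 67 on/off identifiers, of which 33 and 65 were also off by TPM. The difference in identifiers per library, foregut minus head with pharynx, was -21.7. It turned to 20.3 with a limit of 1 CPM on unadjusted library totals and to 14 without foregut replicate 3. It ranged from -69.5 to 14 over single libraries left out. In head with pharynx, genes at least 2-fold lower in foregut held 5.15% of counts, against 4.33% of TPM. The 4 named identifiers kept their direction and call in the other fits, but XBXT10g016337 did not pass the test against a 2-fold change. The cause of these shifts was not tested.

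Same-numbered libraries of foregut and head with pharynx deviated together only weakly (correlations of 0.0259, 0.0505 and 0.0637), all under 0.1, so the numbers were not taken as pairs. Between these tissues each library correlated best with its own number, a hint from the data. Same-numbered foregut and hindgut libraries of the same fit had 0.129, 0.296 and 0.125, all above 0.1, and the main fit took no account of the numbers. With a replicate block 5287 genes were higher and 5146 lower. Genes under 1 TPM have a median SE of 0.48, which limits what depth can show there.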
